A study of Mus musculus with 8 samples.

Results

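Toll-like receptors are innate immune receptors that recognise microbial molecules and some molecules released by damaged tissue. The genes described here are 9 mouse receptors, Tlr1 to Tlr9, and Myd88, the adaptor that most of them share. They were taken by gene symbol, and all 10 were found among the 37979 genes of the deposited table and had FPKM above 0 in at least 1 library. RNA was measured in pericytes and smooth muscle cells (SMCs) of hindlimb muscle. The donors were Ai14+/-;SM22α-Cre+ mice of both sexes, aged 3 to 4 months. Both cell groups were sorted as PDGFRβ+ and as negative for CD31 and CD45, and they were parted by tdTomato, which pericytes lacked and SMCs carried. Both groups therefore carry the same Cre and reporter alleles, and the groups differ in whether the SM22α promoter had switched on tdTomato. There were 4 libraries of each group, numbered from 1 to 4, and multiple sorts were combined for each library. The study describes the libraries of a group as biological replicates. As each combines several sorts, p-values measure the spread between such pools. The study does not state whether libraries of the same number in both groups came from the same mice. The main test treated the libraries as unpaired.

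Receptors of this family sit either at the cell surface, where they meet bacterial lipids and proteins (TLR1, TLR2, TLR4, TLR5 and TLR6), or in endosomes, where they meet nucleic acids (TLR3, TLR7, TLR8 and TLR9). A bound receptor gathers adaptors at its TIR domain, and MYD88 then recruits IRAK kinases and TRAF6, which release NF-κB and switch on cytokine and chemokine genes. TLR3 uses another adaptor, TRIF, and TLR4 uses both. In skeletal muscle, these receptors are best known from macrophages and other leukocytes, and TLR2, TLR3 and TLR4 are also described in vascular and stromal cells.

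Sequences of 2 kinds bear on the values. The first is a stretch shared by Tlr1 and Tlr6, which lie side by side on chromosome 5. It is shown because read pairs that lie wholly within it cannot be assigned to either gene by sequence. The coding sequences of both genes were 75.5% identical over 2364 aligned bases, and the other 35 pairs of receptors were 53.1% to 62.9% identical. Of the 36 pairs, 1 pair shared any run of 31 bases, namely Tlr1 and Tlr6, with 25.2% of the 31-base windows of Tlr6 also found in Tlr1. At the read length of 150 bases, 6.12% of the windows were shared. The longest identical run was 229 bases, at chr5:65316776-65317004 in Tlr1 and chr5:65345067-65345295 in Tlr6 (NCBI Build 37, minus strand, within the 1 coding exon of each gene).
Tlr1 and Tlr6 shared coding run: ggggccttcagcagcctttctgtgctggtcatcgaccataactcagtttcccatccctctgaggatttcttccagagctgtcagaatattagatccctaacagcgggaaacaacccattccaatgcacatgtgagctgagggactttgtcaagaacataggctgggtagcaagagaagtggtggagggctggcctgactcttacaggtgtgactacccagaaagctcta

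The second kind is the promoter, shown for the receptor with the largest difference toward pericytes (Tlr1), the one with the largest difference toward SMCs (Tlr3) and the adaptor. RefSeq windows from 250 bases before to 50 bases after a start site were at hand for 8 of the 10 genes, in 10 windows (GRCm38.p6), and not for Tlr4 and Tlr7. They were searched on both strands for 3 motifs. A loose NF-κB motif was GGG and CC with any 5 bases between them. The core of the interferon-stimulated response element (ISRE) was GAAA and GAAA with any 2 bases between them. A PU.1 motif was GAGGAAGT. The 3 motifs were chosen with the results known. Capitals mark the matches, which do not overlap each other in these windows.
Tlr1, chr5:64933509-64933808, minus strand: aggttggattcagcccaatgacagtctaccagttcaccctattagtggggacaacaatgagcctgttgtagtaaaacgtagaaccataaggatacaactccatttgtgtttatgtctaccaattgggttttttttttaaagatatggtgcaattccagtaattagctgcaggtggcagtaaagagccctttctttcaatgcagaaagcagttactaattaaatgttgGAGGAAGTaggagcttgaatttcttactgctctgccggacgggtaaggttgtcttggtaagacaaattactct
Tlr3, chr8:45410331-45410630, minus strand: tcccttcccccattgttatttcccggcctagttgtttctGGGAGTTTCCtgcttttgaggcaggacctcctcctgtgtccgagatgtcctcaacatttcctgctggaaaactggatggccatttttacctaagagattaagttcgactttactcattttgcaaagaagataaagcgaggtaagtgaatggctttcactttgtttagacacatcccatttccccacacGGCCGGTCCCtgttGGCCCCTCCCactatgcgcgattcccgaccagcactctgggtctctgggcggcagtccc
Myd88, chr9:119339969-119340268, minus strand: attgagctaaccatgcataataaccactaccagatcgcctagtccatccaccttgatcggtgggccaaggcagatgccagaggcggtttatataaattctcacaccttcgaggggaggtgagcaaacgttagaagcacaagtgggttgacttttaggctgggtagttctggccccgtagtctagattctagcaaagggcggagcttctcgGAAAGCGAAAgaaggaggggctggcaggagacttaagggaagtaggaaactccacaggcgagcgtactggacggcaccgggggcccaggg
GAGGAAGT was found in windows of Tlr1 and Tlr9 and in 3.20% of all 32851 windows of this length. The ISRE core was found in windows of Tlr6 and Myd88 and in 3.44% of all windows. The NF-κB motif was found in windows of Tlr2, Tlr3, Tlr5 and Tlr6, and 50.8% of all windows hold it. A match describes the letters only.

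The libraries were of similar depth, and the labels were checked against marker genes. Of the genes behind the sort, Tagln and Pdgfrb were not called, Pecam1, which encodes CD31, was higher in SMCs, and Ptprc, which encodes CD45, was higher in pericytes. Tagln, the gene of SM22α, had 165 to 551 FPKM in pericytes and 500 to 1569 FPKM in SMCs (limma adjusted p = 0.110), and Pdgfrb had 3.21 to 17.6 and 15.6 to 91.5 FPKM (limma adjusted p = 0.0973). Pecam1 had 25.0 to 59.7 and 102 to 301 FPKM (log2 difference -2.06, limma adjusted p = 0.00873), and Ptprc had 80.6 to 230 and 4.34 to 11.9 FPKM (log2 difference 4.24, limma adjusted p = 4.00e-04). FPKM counts the fragments of a gene per kilobase of its transcript and per library size. It summed to 690247 to 1190435 in pericytes, with replicate 2 the highest, and to 656405 to 737839 in SMCs. Low FPKM of genes with a single annotated transcript fell on whole multiples of what 1 fragment is worth, which gave an estimated 21700000 to 26300000 fragments in pericyte libraries and 25000000 to 26500000 in SMC libraries. Fragment numbers cover counting error only, as reads were amplified by PCR without molecular identifiers. None of 10 mural cell markers was called higher in pericytes and 1 (Rgs5) was called higher in SMCs. Each of the 10 had a negative log2 difference (pericytes minus SMCs), from -2.02 (Pdgfrb) to -0.97 (Notch3). The summed FPKM of mural cell markers overlapped (589 to 1857 in pericytes and 1744 to 5538 in SMCs). Markers of B cells (6 of 6), T cells (6 of 7), natural killer cells (4 of 4) and dendritic cells (4 of 7) were higher in pericytes, with summed FPKM of 795 to 1979, 1206 to 1971, 78.0 to 132 and 162 to 355 against 9.60 to 30.9, 20.2 to 46.9, 1.76 to 4.22 and 26.7 to 61.5 in SMCs. Markers of fibroblasts (6 of 6), endothelial cells (5 of 7) and macrophages (7 of 10; not Cd68, Lyz2 and Csf1r) were higher in SMCs. Their summed FPKM were 4286 to 5859, 265 to 900 and 1380 to 2062 in SMCs, against 566 to 820, 76.5 to 124 and 889 to 1813 in pericytes. Of 8 neutrophil markers 2 were higher in pericytes (summed FPKM 1260 to 5487 against 249.7 to 2991), and of 6 skeletal muscle markers none was called (19.8 to 27.1 against 26.4 to 38.1). Summed macrophage markers overlapped between groups. Among these lists, Pax5, a B cell gene, was the 1 marker listed at 0 in any library, and its zero was in SMCs. The part of these cell types in the results that follow was not tested, and in bulk libraries fewer cells of a type and less RNA per cell cannot be told apart.

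Pericytes and SMCs differed in the level of 5 of the 9 receptors and of the adaptor. Tlr1 and Tlr7 were higher in pericytes, and Tlr2, Tlr3, Tlr4 and Myd88 were higher in SMCs, by limma on log2(FPKM + 1) with an adjusted p below 0.05 over the 27414 genes tested, of which 21.8% were called in either direction. Thus 2 of 10 genes were called higher in pericytes, where 10.6% of all genes tested were, and 4 of 10 were called higher in SMCs, where 11.2% were. Among genes that averaged 1 FPKM or more these shares were 19.7% and 19.5%, and 7 members reached that level, of which 2 were called toward pericytes and 4 toward SMCs. Tlr5, Tlr6, Tlr8 and Tlr9 were not called. Over the 16 alternative fits, the number called toward pericytes was 1 to 2, as the call of Tlr7 was lost in several. The number called toward SMCs was 3 to 5. No called member passed a difference of 2 on the log2(FPKM + 1) scale, whereas 3.24% of genes tested were called and passed it toward pericytes and 2.66% toward SMCs. This depends on the pseudocount, since with 0.1 the differences of Tlr1, Tlr3 and Tlr7 were 2.65, -2.32 and 2.03. The median difference of the 10 genes, pericytes minus SMCs, was -0.34, against 0.02 over all genes tested. SMC and pericyte libraries did not overlap, with SMCs the higher, for Tlr2, Tlr3, Tlr4 and Myd88 (12.5% of genes tested), nor did they, with pericytes the higher, for Tlr1 (12.1%).

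**Figure D1:**
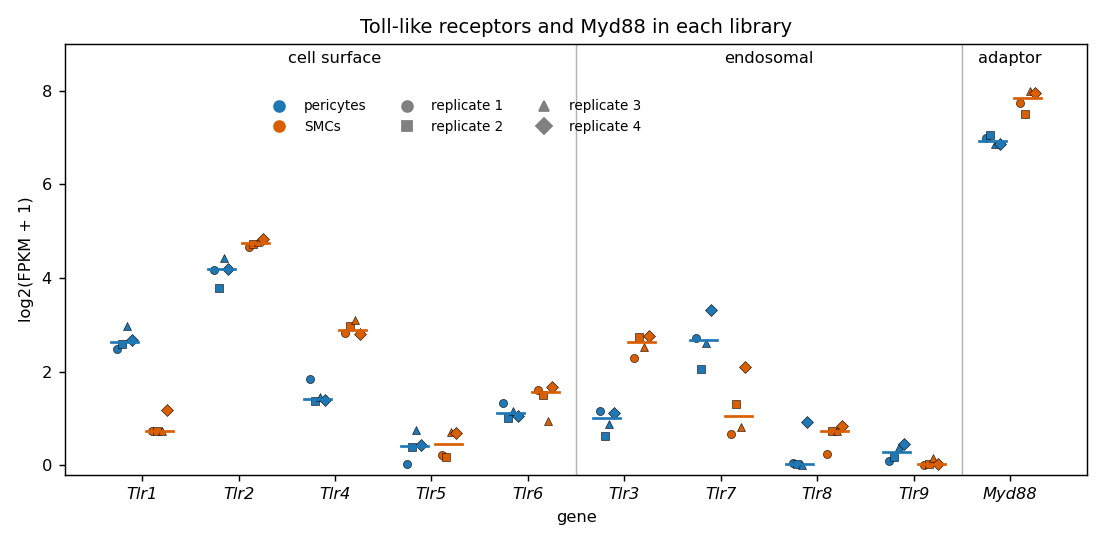
Level of each gene in each library as log2(FPKM + 1), for 4 pericyte and 4 SMC libraries; symbols give the replicate number and horizontal lines the median. Tlr1 and Tlr7 are higher in pericytes, and Tlr2, Tlr3, Tlr4 and Myd88 are higher in SMCs, with overlap between groups for Tlr7. The calls of Tlr7 and Tlr2 were lost in some alternative fits.

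**Figure D2:**
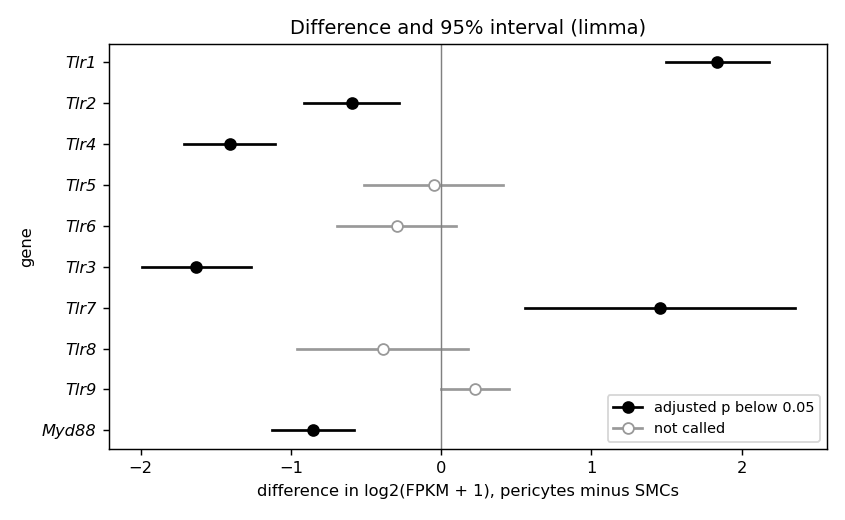
Difference in log2(FPKM + 1), pericytes minus SMCs, with its 95% interval from limma, for the 10 genes; filled points have an adjusted p below 0.05. The intervals of Tlr5, Tlr6, Tlr8 and Tlr9 include 0.

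FPKM is scaled to transcript length, and on that basis levels were set side by side between genes. The genes differ in the number of annotated transcripts (1 for Tlr2, 4 for Myd88 and 6 for Tlr7), and Tlr1 and Tlr6 share sequence. The effect of these on the order, and on the shares and ratios below, was not tested. Myd88 was the most abundant in every library, followed by Tlr2. In pericytes the order of mean FPKM then ran from Tlr7 and Tlr1, which overlapped, to Tlr4, and on to Tlr6, Tlr3, Tlr5, Tlr8 and Tlr9, each of which overlapped the next. In SMCs the order after Tlr2 was Tlr4 and then Tlr3, which did not overlap, and then Tlr6, Tlr7, Tlr1, Tlr8 and Tlr5, each of which overlapped the next. Tlr9 was lowest in SMCs and lay below all SMC values of Tlr5. Tlr1 was thus at rank 4 in pericytes and rank 7 in SMCs, and Tlr3 was at rank 7 and rank 4.

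Among the cell surface receptors, TLR2 recognises bacterial lipoproteins as a pair with TLR1 or TLR6. Tlr2 (ENSMUSG00000027995) was annotated at chr3:83640195-83645689 (minus strand; positions of genes are in NCBI Build 37). It had 17.1, 12.8, 20.7 and 17.4 FPKM in pericyte replicates 1 to 4 and 24.3, 25.6, 26.2 and 27.4 FPKM in SMC replicates 1 to 4. All SMC libraries were above all pericyte libraries, and SMC values were close together. The SMC mean was 1.52 times the pericyte mean, and the log2 difference was -0.60 (standard error 0.14, limma adjusted p = 0.0186). The call was lost without SMC replicate 3 (adjusted p = 0.0503) or without SMC replicate 4 (adjusted p = 0.0526), with a pseudocount of 0.1 (adjusted p = 0.0884) and with TPM, in which each library is scaled to the same sum (adjusted p = 0.0803). These values rested on an estimated 763 to 1435 fragments in pericyte libraries and 1665 to 1997 in SMC libraries.

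TLR1 joins TLR2 for triacylated lipoproteins. Tlr1 (ENSMUSG00000044827) was annotated at chr5:65316050-65324000 (minus strand), in 3 exons of which 1 holds the coding sequence. It had 4.64, 5.03, 6.82 and 5.38 FPKM in pericyte replicates 1 to 4, and 0.655, 0.660, 0.659 and 1.28 FPKM in SMC replicates 1 to 4. The lowest pericyte library was well above the highest SMC library, and SMC replicate 4 stood above the other SMC libraries. The pericyte mean of 5.47 ± 0.953 FPKM (SD, n = 4) was 6.73 times the SMC mean of 0.813 ± 0.310 FPKM (SD, n = 4). On the log2(FPKM + 1) scale, which understates the change of low genes, the difference was 1.84 (standard error 0.15, limma adjusted p = 2.03e-04). The estimated fragments were 269, 261, 411 and 338 in pericyte replicates 1 to 4 and 39, 42, 40 and 81 in SMC replicates 1 to 4. Markers of B cells (6 of 6), T cells (6 of 7), natural killer cells (4 of 4) and dendritic cells (4 of 7) were higher in the same libraries as Tlr1.

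TLR6, the other partner of TLR2, serves diacylated lipoproteins. Tlr6 (ENSMUSG00000051498) was annotated beside Tlr1 at chr5:65344345-65351287 (minus strand). It had 1.51, 1.02, 1.24 and 1.09 FPKM in pericyte replicates 1 to 4 and 2.07, 1.84, 0.942 and 2.18 FPKM in SMC replicates 1 to 4. The groups overlapped through SMC replicate 3, which was below every pericyte library. The log2 difference was -0.30 (95% interval -0.69 to 0.10, limma adjusted p = 0.299), and without SMC replicate 3 it was -0.46 with an adjusted p of 0.0235. Tlr1 was 3.06 to 5.52 times Tlr6 in pericyte libraries and 0.316 to 0.700 times Tlr6 in SMC libraries, so the more abundant partner of Tlr2 was Tlr1 in each pericyte library and Tlr6 in each SMC library. This ratio was chosen after its values were seen and was not tested. Fragments that lie wholly within shared runs could be moved between both genes in counting. All 40 values of Tlr1, Tlr2, Tlr5, Tlr6 and Tlr9 came out within 0.1 of a whole number of fragments, so no fraction of a fragment was seen in either neighbour. Whole numbers cannot show whether whole fragments were moved between both genes, and this was not tested.

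TLR4 recognises bacterial lipopolysaccharide together with MD-2, and also molecules released from matrix. Tlr4 (ENSMUSG00000039005) was annotated at chr4:66488618-66591318 (plus strand). It had 2.62, 1.61, 1.76 and 1.62 FPKM in pericyte replicates 1 to 4 and 6.14, 6.83, 7.67 and 5.97 FPKM in SMC replicates 1 to 4. The lowest SMC library exceeded the highest pericyte library, and the SMC mean was 3.50 times the pericyte mean. The log2 difference was -1.41 (standard error 0.13, limma adjusted p = 3.55e-04). Fibroblast (6 of 6), endothelial (5 of 7) and macrophage markers (7 of 10) were higher in the same libraries. The summed FPKM of the macrophage markers overlapped between groups.

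TLR5 recognises flagellin. Tlr5 (ENSMUSG00000079164) was annotated at chr1:184884919-184906175 (plus strand). It had 0.0140, 0.314, 0.689 and 0.350 FPKM in pericyte replicates 1 to 4 and 0.164, 0.128, 0.644 and 0.616 FPKM in SMC replicates 1 to 4. The groups overlapped throughout, at an estimated 1 to 51 fragments in pericyte libraries and 10 to 48 in SMC libraries. The log2 difference was -0.05 (95% interval -0.51 to 0.41, limma adjusted p = 0.896).

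Among the endosomal receptors, TLR3 recognises double-stranded RNA. Tlr3 (ENSMUSG00000031639) was annotated at chr8:46481019-46495962 (minus strand). It had 1.25, 0.555, 0.849 and 1.17 FPKM in pericyte replicates 1 to 4 and 3.94, 5.71, 4.77 and 5.75 FPKM in SMC replicates 1 to 4. The groups were fully apart, and the SMC mean of 5.04 ± 0.866 FPKM (SD, n = 4) was 5.27 times the pericyte mean of 0.956 ± 0.319 FPKM (SD, n = 4). The log2 difference was -1.63 (standard error 0.15, limma adjusted p = 4.07e-04). As for Tlr4, fibroblast (6 of 6), endothelial (5 of 7) and macrophage markers (7 of 10) were higher in these libraries, with the same overlap of summed macrophage markers.

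TLR7 recognises single-stranded RNA and is used by plasmacytoid dendritic cells, B cells and macrophages. Tlr7 (ENSMUSG00000044583) was annotated at chrX:163742861-163768490 (minus strand). It had 5.63, 3.16, 5.12 and 8.99 FPKM in pericyte replicates 1 to 4 and 0.582, 1.49, 0.756 and 3.30 FPKM in SMC replicates 1 to 4. Replicate 4 was the highest in both groups, and SMC replicate 4 exceeded pericyte replicate 2. The pericyte mean was 3.74 times the SMC mean, and the log2 difference was 1.46 (95% interval 0.56 to 2.35, limma adjusted p = 0.0325). The call was lost when any 1 of 6 libraries was left out (pericyte replicates 1, 3 and 4 and SMC replicates 1, 2 and 3), with adjusted p values of 0.0681 to 0.0850 in those fits, and with TPM scaling (adjusted p = 0.0875). The difference was 1.24 to 1.75 over the 8 fits without 1 library. B cell (6 of 6), dendritic cell (4 of 7), T cell (6 of 7) and natural killer cell markers (4 of 4) were higher in the same group. Macrophage markers were higher in SMCs (7 of 10) or not called, and their summed FPKM overlapped between groups.

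TLR8, a neighbour of TLR7 with a similar ligand, and TLR9, a receptor for unmethylated CpG DNA, were the lowest of the endosomal receptors. Tlr8 (ENSMUSG00000040522) was annotated at chrX:163680626-163702261 (minus strand). It had 0.0419, 0.0156 and 0.904 FPKM in pericyte replicates 1, 2 and 4 and was listed at 0 in replicate 3, and it had 0.190, 0.662, 0.662 and 0.798 FPKM in SMC replicates 1 to 4. Pericyte replicate 4 was above all SMC libraries and the other pericyte libraries were below them. The log2 difference was -0.39 (95% interval -0.96 to 0.18, limma adjusted p = 0.350), and without pericyte replicate 4 it was -0.61 with an adjusted p of 0.0359. Tlr9 (ENSMUSG00000045322) was annotated at chr9:106124929-106129207 (plus strand). It had 0.0642, 0.129, 0.309 and 0.380 FPKM in pericyte replicates 1 to 4, and 0.0234, 0.111 and 0.0235 FPKM in SMC replicates 2 to 4, and it was listed at 0 in SMC replicate 1. These stand for an estimated 5, 9, 25 and 32 fragments in pericytes and 0, 2, 9 and 2 fragments in SMCs, and the groups overlapped at SMC replicate 3. A count of 0 in SMC replicate 1 allows up to 3 fragments, or 0.0375 FPKM (counting error only). The log2 difference of Tlr9 was 0.22 (95% interval -0.0018 to 0.45, limma adjusted p = 0.161), and at these low levels it was 1.13 with a pseudocount of 0.1, also not called.

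The adaptor was far more abundant than any receptor. Myd88 (ENSMUSG00000032508) was annotated at chr9:119245052-119250529 (minus strand). It had 126, 132, 116 and 116 FPKM in pericyte replicates 1 to 4 and 214, 181, 253 and 246 FPKM in SMC replicates 1 to 4. The groups did not overlap, and pericyte libraries were close together (SD of log2 values 0.09, against 0.22 in SMCs). The SMC mean of 224 ± 32.8 FPKM (SD, n = 4) was 1.82 times the pericyte mean of 123 ± 7.84 FPKM (SD, n = 4), with a log2 difference of -0.85 (standard error 0.12, limma adjusted p = 0.00210). Myd88 had 3.10 to 5.38 times the summed FPKM of the 9 receptors in pericyte libraries and 4.23 to 5.95 times in SMC libraries, and these ratios overlapped.

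Summed over the 9 receptors, pericyte libraries had 24.6 to 37.5 FPKM and SMC libraries 38.01 to 47.3 FPKM. Tlr2 made up 46.7% to 55.2% of this sum in pericytes and 57.9% to 63.9% in SMCs. Tlr1 held 14.1% to 20.4% in pericytes and 1.54% to 2.70% in SMCs, and Tlr7 held 12.8% to 24.1% and 1.53% to 6.98%. In SMCs the corresponding places were taken by Tlr4, with 12.6% to 18.1% against 4.34% to 7.98% in pericytes, and Tlr3, with 10.4% to 13.3% against 2.26% to 3.80%. The share of the 4 endosomal receptors together overlapped between groups, at 15.7% to 30.7% in pericytes and 12.4% to 20.9% in SMCs, although its main receptor was Tlr7 in every pericyte library and Tlr3 in every SMC library. The ratio of Tlr7 to Tlr3 was 4.52 to 7.65 in pericytes and 0.148 to 0.574 in SMCs. These shares repeat the levels above and were not tested.

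**Figure D3:**
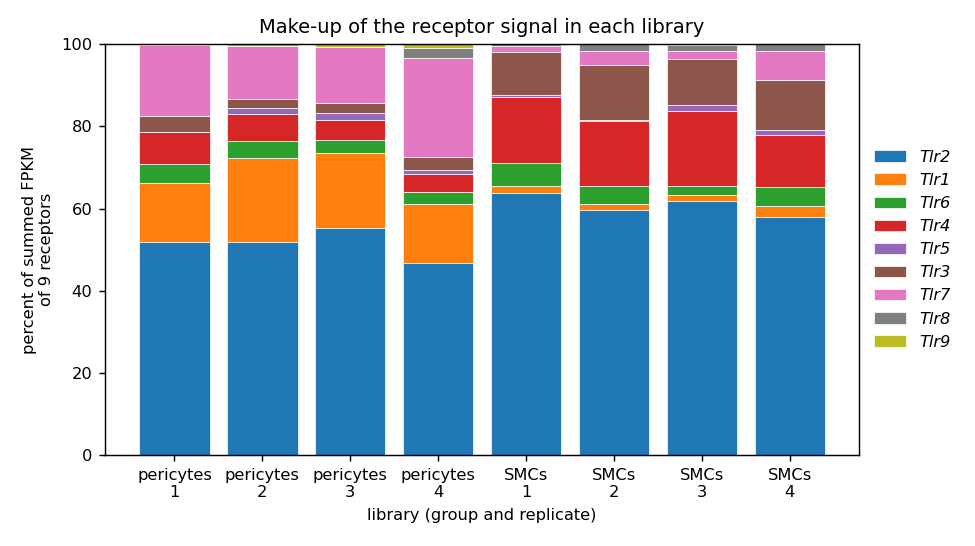
Share of each receptor in the summed FPKM of the 9 receptors (percent, stacked bars from 0) in the 4 pericyte and 4 SMC libraries. Tlr2 is the largest part of every bar; Tlr1 and Tlr7 fill most of the rest in pericytes, and Tlr4 and Tlr3 in SMCs.

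By level and pattern over the 8 libraries, the genes closest to a member were found by the Euclidean distance of log2(FPKM + 1) among 13611 genes that averaged 1 FPKM or more. Those closest to Myd88 were Sdc4 (distance 0.626), Lrpap1 (0.627) and Itm2c (0.710). Those closest to Tlr2, the most abundant receptor in both groups, were Upf3a (0.487), Lass4 (0.564) and Rsrc1 (0.579).

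The other genes of the pathway were taken from 9 lists with 91 genes in all. Of these, 20 were called toward pericytes, 17 toward SMCs and 54 were not called (limma adjusted p below 0.05), against 10.6% and 11.2% of all genes tested, or 19.7% and 19.5% of genes that averaged 1 FPKM or more. Over the 16 alternative fits, 16 to 29 were called toward pericytes and 14 to 20 toward SMCs. TPM scaling gave 16 and 20. A covariate for replicates 1 and 2 against 3 and 4, chosen after seeing the data, gave 29 and 20. In the main fit, the median difference was 0.32, against 0.02 over all genes tested. The counts of each list below stand against the same shares of all genes tested, and no list was tested as a set. Among 3 further mouse receptors, Tlr12, a receptor for profilin of protozoa, had 0.602 to 2.45 FPKM in pericytes and up to 0.501 FPKM in SMCs, where replicates 1 and 2 were listed at 0 (log2 difference 0.93, limma adjusted p = 0.0382), a call that was lost in 8 of the 15 alternative fits that tested it. Tlr11 had 0.156 to 1.04 FPKM in pericytes and 0.163 to 0.624 FPKM in SMCs, and Tlr13 had 0.776 to 1.81 and 1.01 to 2.45 FPKM, and neither was called.

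**Figure D4:**
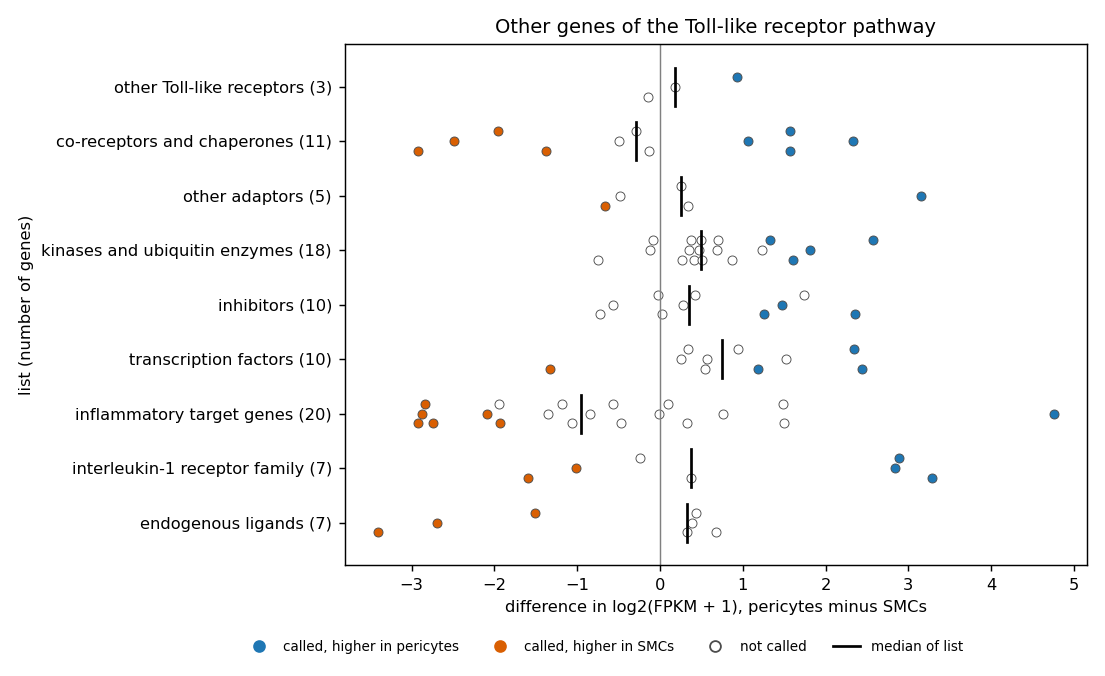
Difference in log2(FPKM + 1), pericytes minus SMCs, of the 91 other pathway genes by list; filled points have a limma adjusted p below 0.05 and black bars give the median of each list. Of 18 kinases and ubiquitin enzymes, the 4 called lie on the pericyte side. Of 20 inflammatory target genes, 6 called genes lie on the SMC side and 1 on the pericyte side. Among all genes tested, 10.6% were called toward pericytes and 11.2% toward SMCs. Those shares were 19.7% and 19.5% among genes that averaged 1 FPKM or more, and no list was tested as a set.

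Co-receptors and chaperones were called in both directions. Of 11 genes, pericytes had the higher level of 4 and SMCs of 4, and 3 were not called, with a median difference of -0.29. The genes called toward SMCs were Lbp, Ly96, Cd36 and Tril. Lbp, which encodes the protein that hands lipopolysaccharide to CD14, had 7.32, 6.73, 8.19 and 6.26 FPKM in pericyte replicates 1 to 4 and 48.1, 28.9, 61.1 and 46.5 FPKM in SMC replicates 1 to 4 (log2 difference -2.49, limma adjusted p = 2.77e-04). Ly96, which encodes MD-2, had 9.93 to 28.3 FPKM in pericytes and 32.0 to 43.9 FPKM in SMCs (log2 difference -1.38, limma adjusted p = 0.0221), a call that was lost in 6 of the 8 fits without 1 library. Cd36, a lipid receptor of endothelial cells and macrophages among others, had 26.7 to 63.5 FPKM in pericytes and 135 to 505 FPKM in SMCs (log2 difference -2.92, limma adjusted p = 0.00378). Tril, an accessory of TLR4, had 0.136 to 3.07 and 5.04 to 10.2 FPKM (log2 difference -1.96, limma adjusted p = 0.0124). Cd14 had 85.0 to 145 FPKM in pericytes and 154 to 203 FPKM in SMCs and was not called (log2 difference -0.50, limma adjusted p = 0.115).

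On the pericyte side, Unc93b1, the escort of endosomal receptors, had 202, 200, 201 and 217 FPKM in pericyte replicates 1 to 4 and 60.0, 45.9, 82.5 and 95.9 FPKM in SMC replicates 1 to 4 (log2 difference 1.57, limma adjusted p = 0.00229). Cd180 and Ly86, whose products form a receptor pair of B cells, had 1.71 to 2.96 and 101 to 220 FPKM in pericytes, against 0.304 to 1.02 and 19.4 to 32.8 FPKM in SMCs (log2 differences 1.06 and 2.33, limma adjusted p = 0.00412 and 0.00108). Lrrc33, a leucine-rich repeat protein, had 64.6 to 100.2 FPKM in pericytes and 22.2 to 35.8 FPKM in SMCs (log2 difference 1.56, limma adjusted p = 0.00107). Hsp90b1, which encodes the chaperone gp96, and Cnpy3, its co-chaperone for Toll-like receptors, were not called (limma adjusted p = 0.558 and 0.594).

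Of 5 other adaptors, 1 was called in each direction, and the median difference was 0.25. Tirap, which bridges TLR2 and TLR4 to MYD88, had 3.36 to 5.85 FPKM in pericytes and 6.19 to 8.90 FPKM in SMCs (log2 difference -0.66, limma adjusted p = 0.0262), a call that was lost in 8 of 16 alternative fits. Pik3ap1, a signalling adaptor of B cells, had 16.2 to 68.6 FPKM in pericytes and 1.72 to 9.43 FPKM in SMCs (log2 difference 3.15, limma adjusted p = 0.0106). Ticam1, which encodes TRIF, and Ticam2, its partner at TLR4, overlapped between groups (log2 differences 0.25 and 0.33, limma adjusted p = 0.722 and 0.498). Sarm1 had 0.659 to 0.761 FPKM in pericytes and 0.820 to 1.95 FPKM in SMCs (limma adjusted p = 0.0504).

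Downstream, 4 of 18 kinases and ubiquitin enzymes were called toward pericytes and 0 toward SMCs, with a median difference of 0.50. Among all genes tested, 10.6% were called toward pericytes and 11.2% toward SMCs. Among genes that averaged 1 FPKM or more, these shares were 19.7% and 19.5%. Ikbke, an IκB kinase relative that acts on interferon regulatory factors, had 8.19 to 23.0 FPKM in pericytes and 1.52 to 2.29 FPKM in SMCs (log2 difference 2.57, limma adjusted p = 0.00131). Irak2, a kinase of the MYD88 complex, and Traf3, a ubiquitin ligase, had log2 differences of 1.81 and 1.60 (limma adjusted p = 0.0229 and 0.0289), and the calls were lost in 5 and 9 of 16 alternative fits. Of 10 inhibitors, 3 were higher in pericytes and 0 in SMCs, with a median difference of 0.35. Tnfaip3, which encodes the NF-κB brake A20, had 93.8 to 338 FPKM in pericytes and 23.1 to 64.7 FPKM in SMCs (log2 difference 2.35, limma adjusted p = 0.0129). Nfkbib and Cyld had log2 differences of 1.26 and 1.48 (limma adjusted p = 0.00916 and 0.0354), and the call of Cyld was lost in 9 of 16 alternative fits.

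Of 10 transcription factors, 3 were called toward pericytes and 1 toward SMCs, with a median difference of 0.75. Rel, the NF-κB subunit of lymphocytes, had 41.4 to 78.6 FPKM in pericytes and 6.66 to 20.1 FPKM in SMCs (log2 difference 2.34, limma adjusted p = 0.00264). Irf5, which acts below MYD88 in myeloid and B cells, and Nfkb1 had log2 differences of 2.44 and 1.19 (limma adjusted p = 0.00848 and 0.00246). Irf1, an interferon-induced factor, was the 1 gene higher in SMCs, with 687 to 806 FPKM against 235 to 332 FPKM in pericytes (log2 difference -1.33, limma adjusted p = 2.98e-04). B cell (6 of 6), T cell (6 of 7), natural killer cell (4 of 4) and dendritic cell markers (4 of 7) were higher in the same libraries as Rel, Irf5 and Nfkb1. Of 8 neutrophil markers 2 were higher there, and 7 of 10 macrophage markers were higher in SMCs.

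Of 20 inflammatory target genes, 6 were higher in SMCs and 1 was higher in pericytes, with a median difference of -0.95. Ccl2, a chemokine that draws monocytes, had 51.5, 76.8, 45.4 and 48.5 FPKM in pericyte replicates 1 to 4 and 413, 344, 493 and 433 FPKM in SMC replicates 1 to 4 (log2 difference -2.92, limma adjusted p = 7.55e-05). Il6, an inflammatory cytokine, had 29.7 to 75.3 FPKM in pericytes and 206 to 615 FPKM in SMCs (log2 difference -2.87, limma adjusted p = 0.00321). Vcam1, an adhesion molecule, had 10.6 to 48.4 and 165 to 270 FPKM (log2 difference -2.83, limma adjusted p = 0.00362). Ccl5, a chemokine of T cells and natural killer cells among others, was the 1 gene higher in pericytes, with 849 to 2532 FPKM against 42.0 to 95.4 FPKM in SMCs (log2 difference 4.75, limma adjusted p = 2.33e-04).

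Receptors of the interleukin-1 family signal through the same adaptor. Of 7 genes, 3 were called toward pericytes and 2 toward SMCs, with a median difference of 0.38. Il18r1 and Il18rap, the chains of the interleukin-18 receptor of T and natural killer cells, had 9.11 to 12.6 and 9.14 to 26.2 FPKM in pericytes, against 0.315 to 1.32 and 0.310 to 1.32 FPKM in SMCs (log2 differences 2.89 and 3.29, limma adjusted p = 1.09e-04 and 6.22e-04). Il1r2, a decoy receptor, had 85.6 to 375 and 23.9 to 30.5 FPKM (log2 difference 2.84, limma adjusted p = 0.00291). Il1r1, the signalling receptor for interleukin-1, had 3.25 to 6.14 FPKM in pericytes and 14.6 to 22.0 FPKM in SMCs (log2 difference -1.60, limma adjusted p = 0.00168). Il1rl2, the receptor for interleukin-36, had a log2 difference of -1.02 (limma adjusted p = 0.0318), a call that was lost in 7 of 16 alternative fits.

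Endogenous ligands include matrix and intracellular proteins. Of 7 genes, 3 were higher in SMCs and 0 in pericytes, and the 3 are matrix genes. The median difference of the list was 0.32, which is toward pericytes. Bgn, which encodes biglycan, a matrix ligand of TLR2 and TLR4, had 30.6 to 54.1 FPKM in pericytes and 320 to 491 FPKM in SMCs (log2 difference -3.40, limma adjusted p = 6.41e-05). Tnc and Vcan, which encode tenascin-C and versican, had log2 differences of -2.69 and -1.51 (limma adjusted p = 0.00420 and 0.00916). The fibroblast markers were higher in the same libraries.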

How the data were processed

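Full-length cDNA was amplified by SMART-Seq chemistry and turned into libraries by Nextera XT tagmentation. After FastQC, the authors ran TopHat and Bowtie2 against NCBI Build 37 with Ensembl genes, and they deposited FPKM per gene and library. The program that computed FPKM and the use of strand are not given in the sources used here. Per the labels, all 8 libraries have the same batch entry, although each combines several sorts.

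FPKM are not counts. The fragments behind a value were estimated from genes with 1 annotated transcript longer than 1500 bases (GENCODE version 1 for mouse), where 97.8% to 98.7% of low values lay within 0.1 of a whole number of fragments in each library. Values of log2(FPKM + 1) were tested with R 4.3.3 and limma 3.58.1 (moderated, 2-sided, no covariate) over the 27414 genes that were not at 0 in every library, with Benjamini-Hochberg adjustment. The test was checked on simulated data with independent noise per gene and library, so the check does not cover effects shared between replicates. As the table holds no counts, counting models were not used. Python 3.11.15 with pandas 2.3.3, Biopython 1.88 and matplotlib 3.10.9 was used for tables, alignments and figures.

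Alternative fits took replicates 1 and 2 against 3 and 4 as a covariate (chosen after seeing the data), left out each library in turn, took the replicate number as a block, scaled by TPM, median ratio or quantiles, let the variance follow a trend, used 0.1 as the pseudocount, or kept only genes at 1 FPKM in 4 or more libraries. The members, lists and motifs were chosen with earlier results of these data known. All members are named. Co-receptors, adaptors and other receptors are named in full, and of the other lists the 3 called genes with the largest difference in each direction. A comparison of proteins was planned, and coding sequences were compared in its place.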

Additional observations from a re-analysis of the deposited data

Results flagged for a closer look

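In groups of 4 libraries, the highest or the lowest library was set apart when its gap to the nearest of the others relative to the range of log2(FPKM + 1) exceeded Dixon's 95% critical value. Among 102 groups, from the members and the other pathway genes named, 9 were set apart, and chance sets apart about 1 in 20. Tlr1 in SMC replicate 4 had 1.28 FPKM, against 0.655 to 0.660 FPKM in the other SMC libraries. Tlr8 in pericyte replicate 4 had 0.904 FPKM, against 0 to 0.0419 FPKM in the other pericyte libraries. Ly96 in pericyte replicate 2 had 28.3 FPKM, against 9.93 to 10.5 FPKM. Unc93b1 in pericyte replicate 4 had 217 FPKM, against 200 to 202 FPKM. Hsp90b1 in pericyte replicate 2 had 150 FPKM, against 243 to 256 FPKM. Ikbke was lowest in replicate 2 of both groups, with 8.19 FPKM in pericytes and 1.52 FPKM in SMCs. Cyld in SMC replicate 1 had 5.85 FPKM, against 9.44 to 10.4 FPKM. Il1rl2 in pericyte replicate 2 had 0.518 FPKM, against 2.04 to 2.21 FPKM. Pericyte replicate 2 thus accounts for 4 of the 9.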

How the results depend on the processing

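The differences of Tlr1, Tlr3, Tlr4 and Myd88 kept their direction and an adjusted p below 0.05 in all 16 alternative fits. Tlr2 missed the threshold with a pseudocount of 0.1 (-0.62), with TPM scaling (-0.83) and without SMC replicate 3 or SMC replicate 4. Without 1 library its difference was -0.69 to -0.47. Tlr7 missed the threshold with TPM scaling (1.40) and in 6 of the 8 fits without 1 library, and over those 8 fits its difference was 1.24 to 1.75. Without 1 library, Tlr5 was -0.17 to 0.077, with its sign turned in 3 fits (0.077, 0.039 and 0.031). Tlr6 was -0.46 to -0.22 in such fits and was called without SMC replicate 3 (limma adjusted p = 0.0235). Tlr8 was -0.61 to -0.30 in such fits and was called without pericyte replicate 4 (limma adjusted p = 0.0359). A pseudocount of 0.1 moved Tlr8 to -1.63 and Tlr9 to 1.13, neither of them called. The number of members higher in pericytes was 1 with TPM scaling and 1 to 2 without 1 library, and the number higher in SMCs was 3 to 5 over all alternatives. With the replicate number as a block the calls of the 10 members were unchanged, with Tlr7 at 1.46 and Tlr2 at -0.60. Under this block 3 of 33 other named calls were lost, namely Traf3, Cyld and Il1rl2. Deviations from the group means correlated across genes at 0.0794 to 0.474 between libraries of the same number, and 2 of 4 pericyte libraries correlated best with their own number. Across groups, the 8 correlations within replicates 1 and 2 or within replicates 3 and 4 were positive (0.0794 to 0.538) and the 8 between these sets were negative (-0.451 to -0.102). With the sets as a covariate, chosen after seeing the data, the members' calls were the same, and within each set the 6 called members kept their direction (Myd88 -0.61 and -1.10, Tlr7 1.40 and 1.51). Tlr5, Tlr8 and Tlr9 were below the filter at 1 FPKM. Of the 33 other named calls, 26 held in all 16 fits and none turned its sign. The cause of these changes was not tested. Values under about 0.1 FPKM rest on few fragments.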
